A study of Mus musculus with 32 samples.

Results

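The comparison described here is that of FAAH S268D with wild type (WT) liver on the NASH-AA diet. It takes 16 of the 32 libraries of the study, 8 of each genotype, chosen by the genotype and diet in their labels. All are polyA RNA libraries of whole mouse liver. WT mice and mice with the S268D substitution in fatty acid amide hydrolase were kept for 28 weeks on a diet the series text names HFFC, here with added ARA. The sample labels call that diet NASH-AA, and the diet without ARA, used for the other 16 samples, NASH. The labels do not say whether S268D is on 1 or both alleles, give no strain, sex or age, and do not tie replicates to separate animals. The p-values therefore set group differences against the spread among samples, and part of that spread may be technical. Nothing in the labels describes a healthy diet, so no value here is set against an undiseased liver.

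Fatty acid amide hydrolase (FAAH) is a membrane enzyme that cleaves fatty acid amides. Its substrates include anandamide, the amide of arachidonic acid and ethanolamine, and the N-acyl taurines, in which a fatty acid is joined to the amino sulfonic acid taurine. The serine that S268D replaces is not the catalytic serine of the enzyme. The title of the series names arachidonoyl-taurine beside steatosis and inflammation of the liver, so the comparison asks how the substitution alters liver transcripts when arachidonic acid is supplied. In liver, taurine is also conjugated to bile acids.

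The codon that S268D replaces is shown to place the substitution within the gene. It lies in exon 6 of Faah-201, a transcript of 579 codons, on the minus strand at chr4:116004736-116004738 (GRCm38, GENCODE M21), and the reference bases of the codon, in capitals, encode serine. The sequence is that of the reference transcript, and the edited codon was not read here.
Faah-201: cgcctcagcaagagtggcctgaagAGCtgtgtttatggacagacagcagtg

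The 16 libraries held 14743007 to 34370032 counts, with a median of 22096255. Summed hepatocyte markers were the highest of the cell type lists, with the defining markers Alb, Ttr and Hnf4a at 49120, 5810 and 566 CPM in WT, where CPM is the normalised count scaled to library size. Enough counts to test were found for 14902 genes. Over those with a mean of at least 1 CPM across the 32 libraries, the first principal component of the 16 libraries held 24.3% of the variance. WT libraries lay between -29.9 and -0.13 on it. Of the FAAH S268D libraries, 7 lay between 3.44 and 36.6, and replicate 3 lay at -16.5, on the side of WT. Levels are given in CPM and differences as log2 fold changes, FAAH S268D minus WT, ± SE from limma-voom.

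Faah itself was measured at 140.0 to 166 CPM in WT, with a mean of 155 ± 7.48, and at 165 to 193 CPM in FAAH S268D, with a mean of 180.0 ± 9.5 (SD, n = 8 each). The groups overlapped by the highest WT and the lowest FAAH S268D library only. The log2 fold change of 0.21 ± 0.06 did not pass the threshold of 0.05 after Benjamini-Hochberg adjustment over all genes (adjusted p = 0.104), and it did pass when the 16 libraries were fitted alone (adjusted p = 0.0174). The level of Faah mRNA does not test the genotype labels, because a changed codon can leave it as it was. Of 17 genes of FAAH and N-acyl amide metabolism, 0 passed, with a median of 0.02 against 0.00 over all genes. Cnr2, which encodes a cannabinoid receptor and lies within 40 Mb of Faah, stood at 3.74 CPM in WT and 5.75 in FAAH S268D (0.60 ± 0.17, adjusted p = 0.088). Pm20d1, whose enzyme joins and splits N-acyl amino acids, stood at 127 and 147 CPM (0.21 ± 0.09, adjusted p = 0.256).

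Across the 14902 genes, 98 differed between the genotypes (0.658%), 52 higher (0.349%) and 46 lower (0.309%) in FAAH S268D. A further measure of separation needs no model: in 93 genes (0.624%) the 8 libraries of one genotype all lay above the 8 of the other, with FAAH S268D lower in 62 (0.416%) and higher in 31 (0.208%), and 44 of these were among the 98. The number depended on which libraries set the spread. The fit just described shares 1 spread per gene over all 32 libraries, with a median SE of 0.114. When the 16 libraries were fitted alone, the median SE was 0.101 and 615 genes passed (4.13%), 245 higher (1.64%) and 370 lower (2.48%), among them 97 of the 98. Without FAAH S268D replicate 3 these counts were 112 in the first fit and 1323 in the second, and without FAAH S268D replicate 2 they were 66 and 257. Leaving out WT replicate 5 of the NASH diet, which enters the first fit through the spread, gave 188 genes. Of 61 named called genes, 32 passed without each of the 16 libraries. Calls are from the fit over 32 libraries unless the fit of the 16 alone is named.

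The called genes fell into a block around Faah on chromosome 4 and a scatter over the rest of the genome. Within 40 Mb of Faah, 46 of 606 genes passed (7.59%), against 1 of 321 on the rest of chromosome 4 (0.312%) and 51 of 13975 on the other chromosomes (0.365%). The 52 genes outside the block, 31 higher and 21 lower, are described before it. When only the 14296 genes outside the block were tested and adjusted, 24 of them passed, 18 higher and 6 lower. Of these 52, 14 have clone or pseudogene names, and the other 38 were 19 higher and 19 lower.

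Among genes outside the block, Csad had the smallest adjusted p of those with ordinary names. Csad (chromosome 15, 102176999 to 102204724) encodes cysteine sulfinic acid decarboxylase, which makes hypotaurine, the precursor of taurine. It was at 93.0 CPM in the lowest WT library, 158 at the median and 241 in the highest, and at 48.5, 68.5 and 95.3 CPM in FAAH S268D. All but the lowest WT library lay above every FAAH S268D library. The log2 fold change was -1.17 ± 0.17 (adjusted p = 6.4e-05), and it was -1.24 among library numbers 1 to 16 and -1.06 among numbers 17 to 32. Of the 7 genes of taurine synthesis and uptake, Csad was the 1 that passed. Cdo1, the cysteine dioxygenase gene one step before it, stood at 1026 and 1104 CPM (0.11 ± 0.11, adjusted p = 0.682). Slc6a6, the taurine transporter gene, stood at 104 and 119 CPM (0.19 ± 0.11, adjusted p = 0.43). Slc16a6, another transporter gene of the list, stood at 8.72 and 5.29 CPM (-0.68 ± 0.18, adjusted p = 0.0791).

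Apoa4 and Slco1a4 had the largest fall and rise outside the block among genes with ordinary names and a mean of at least 1 CPM. Apoa4 (chromosome 9, 46240696 to 46243459), an apolipoprotein of triglyceride-rich particles, was at 674, 1305 and 2461 CPM in the lowest, median and highest WT libraries. In FAAH S268D it was at 301, 506 and 780 CPM, and only the lowest WT library fell among the FAAH S268D values. Its log2 fold change of -1.47 ± 0.36 was close to the threshold (adjusted p = 0.0453). It was lost when any of 12 of the 16 libraries was left out, with an adjusted p of up to 0.114. Slco1a4 (chromosome 6, 141805440 to 141856199), a hepatocyte carrier of bile acids and other organic anions, was at 8.52, 17.8 and 24.4 CPM in WT and 17.6, 45.2 and 64.2 CPM in FAAH S268D. Replicates 5 and 6 of FAAH S268D lay within the WT range, at 19.8 and 17.6 CPM. The log2 fold change was 1.29 ± 0.29 (adjusted p = 0.0271), and it passed without 7 of the 16 libraries in turn, with an adjusted p of up to 0.0781.

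**Figure D1:**
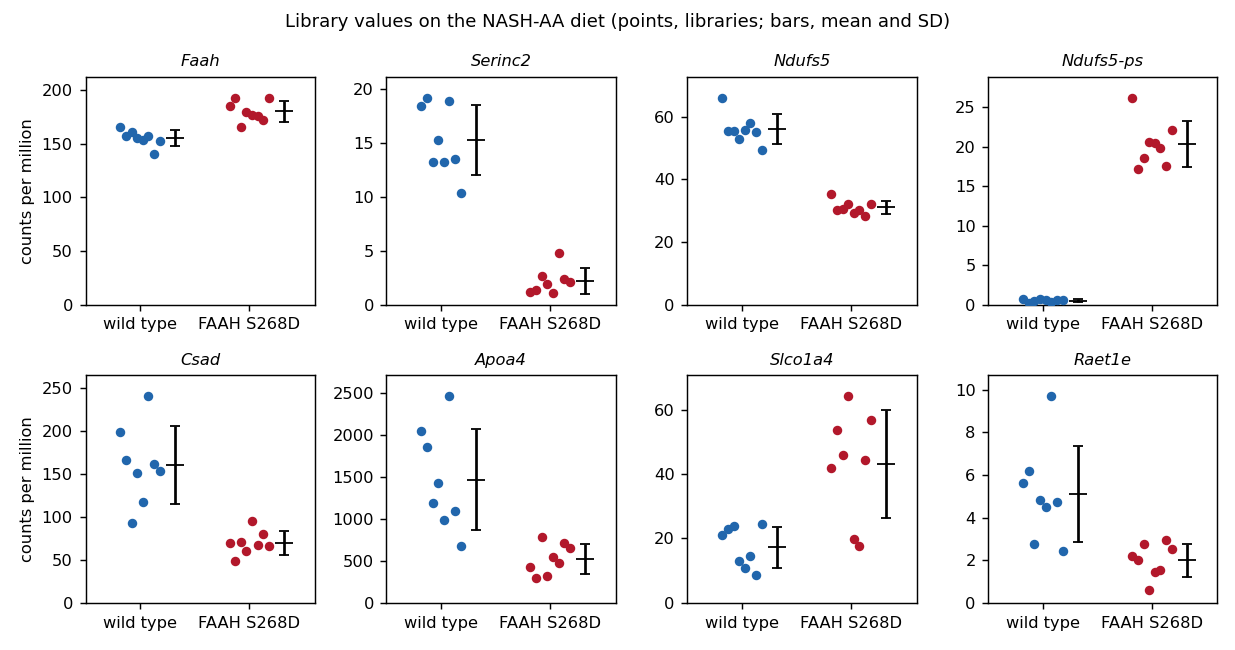
Levels in CPM of 8 genes in each of the 8 WT and 8 FAAH S268D libraries on the NASH-AA diet. Points are libraries and bars the mean with SD. Csad, Apoa4 and Raet1e were lower and Slco1a4 higher in FAAH S268D with a few libraries overlapping, while Serinc2, Ndufs5 and Ndufs5-ps did not overlap between the groups.

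Other genes that were lower outside the block had smaller counts or smaller differences. Raet1e and Raet1d, which encode ligands of the NKG2D receptor of natural killer cells, were lower by -1.26 ± 0.31 and -0.85 ± 0.20 (adjusted p = 0.0464 and 0.0381). Their gene models overlap on chromosome 10, so their reads may be shared. Serpina7, the thyroxine-binding globulin gene, was at 96.3 to 149 CPM in WT and 36.4 to 128 CPM in FAAH S268D (-1.06 ± 0.25, adjusted p = 0.0361). Chd9, a chromatin remodeller gene, had means of 152 and 76.8 CPM (-0.86 ± 0.20, adjusted p = 0.0278). The 2 groups of Litaf, which encodes a protein of the endosome and lysosome membrane, did not overlap, at 81.0 to 106 CPM in WT and 56.7 to 76.7 CPM in FAAH S268D (-0.47 ± 0.08, adjusted p = 0.00167). Tsc22d4 and Proca1 did not overlap either, with log2 fold changes of -0.58 and -0.78. Ifi30, a lysosomal thiol reductase gene of antigen processing, and Ifitm1, an interferon-induced transmembrane protein gene, were lower by -0.57 ± 0.14 and -0.53 ± 0.13. Arsg (-0.74), Hopx (-0.65), Ms4a4d (-0.46) and Baiap2l1 (-0.43) also passed. As each of the 16 libraries was left out in turn, Arsg and Litaf passed 16 times, Tsc22d4 15, Proca1 12 and Chd9 11. Raet1d passed 8 times, Baiap2l1 5, Serpina7, Hopx, Ms4a4d and Ifitm1 4 each, Raet1e 3 and Ifi30 2. Hcar2, the niacin receptor gene, had a mean under 1 CPM and is named because its values were seen to separate, at 1.44 CPM in WT and 0.456 in FAAH S268D (-1.59, adjusted p = 0.0121).

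Among genes with ordinary names and a mean of at least 1 CPM that were higher outside the block, Chic1 (1.24 ± 0.29) and Setbp1 (1.15 ± 0.27) had the largest differences after Slco1a4. Both were close to 1 CPM in WT, at 1.03 and 1.18, and at 2.42 and 2.92 CPM in FAAH S268D. Col27a1, a fibrillar collagen gene 52.7 Mb from Faah on the same chromosome, was at 27.1, 43.8 and 65.7 CPM in the lowest, median and highest WT libraries and 48.3, 75.9 and 115 CPM in FAAH S268D (0.81 ± 0.18, adjusted p = 0.0253). Rnf152, a ubiquitin ligase gene of the lysosome, went from a mean of 28.5 to 44.0 CPM (0.62 ± 0.12, adjusted p = 0.00415). Gas1, a growth arrest gene, went from 18.3 to 28.6 CPM (0.65 ± 0.15). Nox4, which encodes an NADPH oxidase that makes hydrogen peroxide, went from 29.2 to 40.4 CPM (0.46 ± 0.10, adjusted p = 0.0182). The groups of Bend7 did not overlap (0.44 ± 0.09). Gsap had one of the smallest errors (0.39 ± 0.07, adjusted p = 0.00136). Dclk3 (0.78), Zfp951 (0.75), Cdh13 (0.47), Zfp467 (0.39), Eef2k (0.39) and Pstk (0.33) also passed. As each of the 16 libraries was left out in turn, Rnf152, Bend7, Gsap, Zfp951 and Eef2k passed 16 times, and Nox4 and Dclk3 15. Col27a1 passed 8 times, Chic1 and Gas1 6, Setbp1 5, Cdh13 and Zfp467 4 and Pstk 2.

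The same genes were measured in the 16 libraries of the NASH diet, which share no library with the NASH-AA comparison. Of the 98 genes called on NASH-AA, 96 had the same sign on NASH and 62 were also called there with that sign, which is 63.3% of the NASH-AA calls and 4.53% of the 1370 calls on NASH (9.19% of genes, 2.89% higher and 6.3% lower). Within 40 Mb of Faah, 46 of 46 had the same sign and 43 were called. Outside it, 50 of 52 had the same sign and 19 were called. Over all genes 68.7% had the same sign, and the log2 fold changes had Pearson's r = 0.642 and Spearman's rho = 0.54 across genes, which are not independent replicates (r = 0.613 outside the block). Csad was lower on NASH too, at 170 CPM in WT and 85.8 in FAAH S268D (-1.0, adjusted p = 0.000744).

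Some genes outside the block stood nearer to 0 on NASH. Slco1a4 was at 27.8 CPM in WT and 26.9 in FAAH S268D there (0.04, adjusted p = 0.943), and the difference of its genotype effects between the diets was 1.25 ± 0.41 (unadjusted p = 0.0051, adjusted p = 0.906). Setbp1 differed between the diets by 1.19 ± 0.38 (unadjusted p = 0.00416, adjusted p = 0.906). Apoa4 was at 3530 and 3030 CPM on NASH (-0.42), and its difference between the diets was -1.05 ± 0.53 (unadjusted p = 0.0561, adjusted p = 0.906). Over all genes 0 passed the test of the difference between diets in limma-voom (628 at an unadjusted p under 0.05), and 0 also passed in limma-trend (723). No gene is therefore called particular to the NASH-AA diet.

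**Figure D2:**
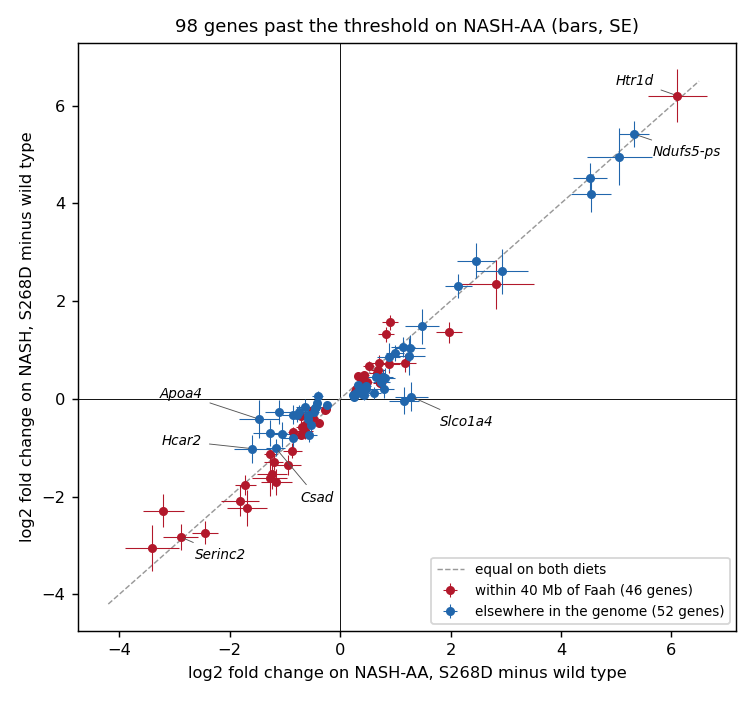
Log2 fold change of FAAH S268D against WT on NASH-AA (horizontal axis) and on NASH (vertical axis) for the 98 genes called on NASH-AA, with SE bars. Genes within 40 Mb of Faah are red, the other 52 blue, and the dashed line marks equal values; 96 of the 98 have the same sign on both diets, and Slco1a4 lies near 0 on NASH.

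The block on chromosome 4 ran from Dab1, 11.8 Mb before Faah, to Tmem201, 33.7 Mb after it. Its density was highest 10 to 20 Mb after Faah, where 23 of 151 genes passed (15.2%), and 8 of 61 passed in the 10 Mb before Faah (13.1%). The called gene nearest to Faah was St3gal3, a sialyltransferase gene 2.04 Mb away (92.2 and 65.4 CPM, -0.50, adjusted p = 2.08e-05). In 28 of the 46 genes the groups did not overlap, against 0.624% of all genes. Part of that is built in, because the 46 were called on the same libraries, and 44 of all 98 called genes separated. A line made by gene targeting or breeding can carry sequence of another strain beside its altered gene. Whether that was so here was not tested.

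**Figure D3:**
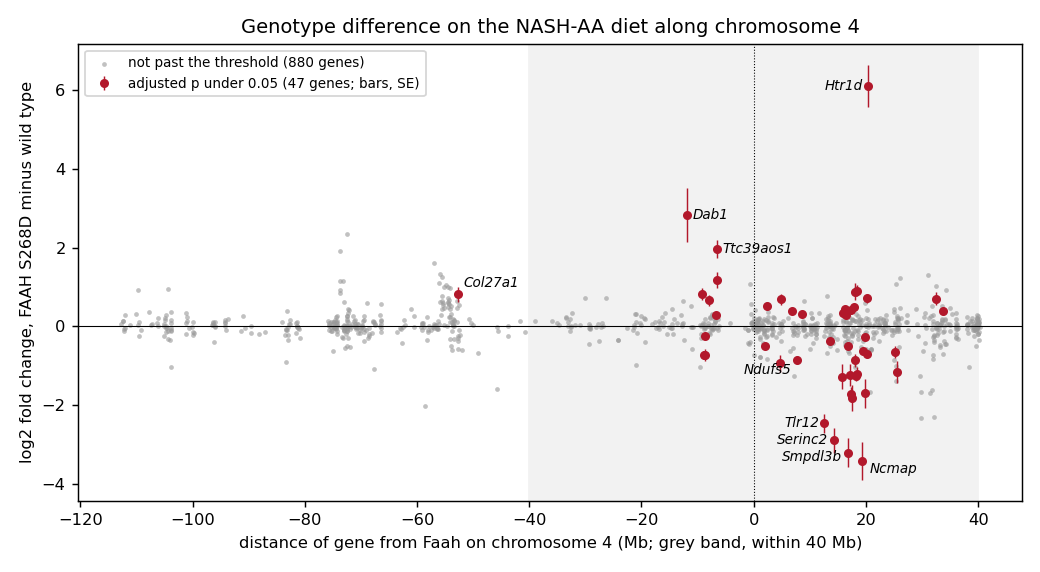
Log2 fold change of FAAH S268D against WT on the NASH-AA diet for the genes of chromosome 4, by distance from Faah in Mb (negative, before it). Red points with SE bars are the 47 genes past the threshold on this chromosome, 46 of them in the grey band within 40 Mb of Faah, with Htr1d the highest and Ncmap the lowest.

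The largest falls in the block at a mean of at least 1 CPM were those of Serinc2 and Tlr12. Serinc2 (130253495 to 130279205 on chromosome 4), of the serine incorporator family, was at 10.4, 14.4 and 19.2 CPM in the lowest, median and highest WT libraries. In FAAH S268D it was at 1.07, 2.03 and 4.78 CPM (-2.89 ± 0.32, adjusted p = 4.74e-07). Tlr12 (128615443 to 128618619), a Toll-like receptor gene, was at 11.4 to 33.5 CPM in WT and 3.12 to 5.94 CPM in FAAH S268D (-2.45 ± 0.24, adjusted p = 3.23e-08). Neither gene overlapped between the groups. Htr1d, a serotonin receptor gene named although its mean was under 1 CPM, had a mean of 0.0118 CPM in WT and 1.96 CPM in FAAH S268D. Smpdl3b, a phosphodiesterase gene of the plasma membrane named for the same reason, had means of 1.38 and 0.171 CPM. Both passed the filter on low counts only through the genotype in which they are high, so their calls are given no p.

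Other genes lower in the block were Cep85, a centrosome gene (-1.27 ± 0.12), Sytl1, of vesicle traffic (-1.72 ± 0.19), and Stmn1, the stathmin gene of microtubule turnover (-1.2 ± 0.17). Il22ra1, the interleukin 22 receptor gene, had means of 3.31 and 1.08 CPM (-1.69 ± 0.36, adjusted p = 0.0147). Map3k6 (-1.24), Fblim1 (-1.16) and Ptpru (-1.28), a receptor tyrosine phosphatase gene, were also lower. When single libraries of the 16 were left out, Map3k6 passed 14 times and Fblim1 and Ptpru 2 times each, with an adjusted p of up to 0.111 and 0.117 for the last 2. Map3k6 was lower by -0.43 among library numbers 1 to 16 and by -1.70 among numbers 17 to 32. Dio1, the deiodinase gene that activates thyroid hormone in liver, had means of 184 and 114 CPM (-0.72, adjusted p = 0.0118). On the higher side, Acot11, an acyl-CoA thioesterase gene, was at 29.6 to 48.7 CPM in WT and 62.9 to 77.2 CPM in FAAH S268D (0.83 ± 0.15, adjusted p = 0.00138). Extl1, a glycosyltransferase gene of heparan sulfate synthesis, was at 17.3 to 28.5 and 34.6 to 49.6 CPM (0.90 ± 0.14). Ttc39a and its antisense neighbour Ttc39aos1 were higher by 1.17 ± 0.21 and 1.97 ± 0.23. The use of strand in counting is not given in the sources used here, so reads of that pair cannot be told apart. Crybg2 (0.88), which passed 4 times as single libraries of the 16 were left out, and Asap3 (0.71), which passed 16 times, were also higher.

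The FAAH S268D libraries did not all lie alike along the block. For each called gene, a position was computed for each library on the log2 scale, with 0 at the mean of WT and 1 at the mean of FAAH S268D. Over the 23 called genes 10 to 20 Mb after Faah, the median position of replicate 6 was 0.58, and that of the other 7 libraries 1.0 to 1.12. Replicate 6 had the lowest position of its group in 15 of these 23 genes. It stood at 0.33 for Cep85 (31.1 CPM, against 14.5 to 17.9 in the other libraries of its group), 0.25 for Sytl1, 0.32 for Nipal3, 0.14 for Ncmap and -0.95 for Ptpru. Over the 7 called genes 0 to 10 Mb after Faah and the 8 genes 10 to 0 Mb before it, its medians were 0.95 and 1.05. Farther out, replicate 4 stood at -0.01 for Arhgef19 and 0.43 for Fblim1, called genes 25.3 and 25.6 Mb after Faah. These positions are a description made after the values were seen, and their source was not tested. Without replicate 6, 50 genes of the block passed, and Cep85 was lower by -1.39 and Ptpru by -1.57.

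**Figure D4:**
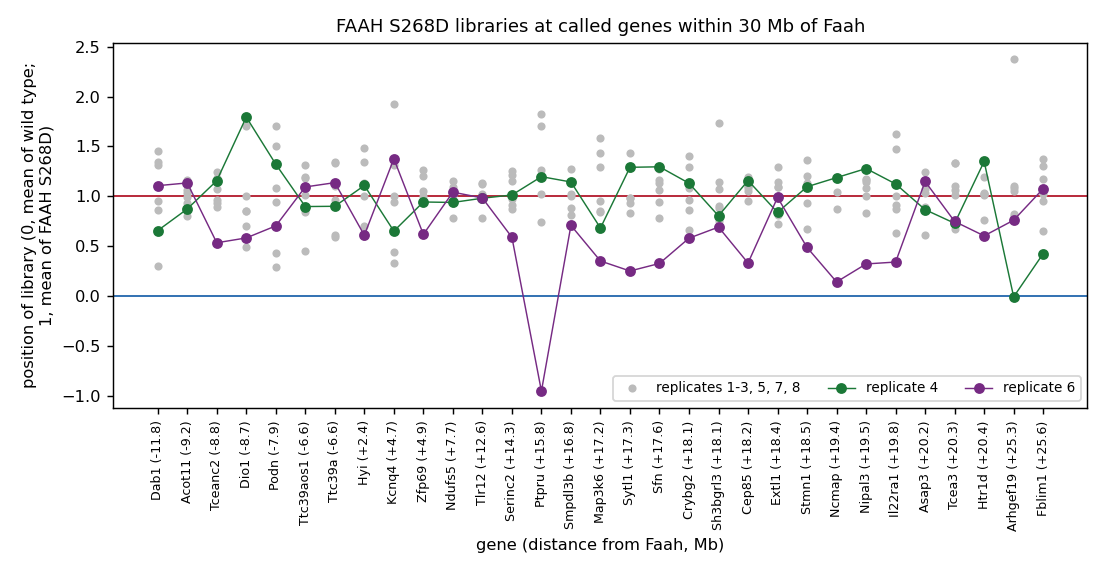
Position of each FAAH S268D library between the mean of WT (0) and the mean of FAAH S268D (1) on the log2 scale, for called genes within 30 Mb of Faah with an absolute log2 fold change of at least 0.5, in order of distance from Faah. Replicate 6 (purple) lies below most other libraries at genes about 14 to 20 Mb after Faah, and replicate 4 (green) is lowest at the last 2 genes.

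Some of the genes called on other chromosomes share sequence with coding genes in the block. Whether that sharing made the calls was not tested, and how often uncalled genes share such sequence was not counted. Of the 14 called genes outside the block with clone or pseudogene names, 10 shared most or part of their sequence with a coding gene within 40 Mb of Faah. The shared part ran from 13.2% of transcript words for Gm7125 to 100% for Gm10182. The clearest was Ndufs5-ps, a processed pseudogene on chromosome 16 (42955631 to 42955949), at 0.185 to 0.666 CPM in WT and 17.2 to 26.2 CPM in FAAH S268D (5.33 ± 0.27, adjusted p = 5.54e-15). Its parent Ndufs5, a subunit gene of respiratory complex I that lies 7.72 Mb from Faah, was at 49.4 to 66.0 CPM in WT and 28.1 to 35.2 CPM in FAAH S268D (-0.85 ± 0.09, adjusted p = 4.74e-07). The sum of both was 56.4 ± 4.77 CPM in WT and 51.3 ± 4.92 CPM in FAAH S268D (SD, n = 8 each), and the copy held 0.899% and 39.6% of it.

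The coding sequence of Ndufs5 and the copy differ in the reference at 2 of 318 bases (99.4% identical). Both differences fall in 1 stretch of 60 bases, shown because it is what can part reads of the parent from reads of the copy. It spans coding bases 46 to 105, at chr4:123715975-123716034 on the minus strand and chr16:42955676-42955735 on the plus strand (GRCm38, GENCODE M21 transcripts). Capitals mark the bases that differ, T81C and A105G, with the base of Ndufs5 given before and that of the copy after the position, counted from 1 at the start codon.
Ndufs5: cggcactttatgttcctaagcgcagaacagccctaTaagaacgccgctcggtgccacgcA
Ndufs5-ps: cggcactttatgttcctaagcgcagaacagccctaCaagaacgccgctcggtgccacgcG
Which base the FAAH S268D reads hold at these positions was not tested.

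Hdac1, a histone deacetylase gene 13.5 Mb from Faah, showed the same arrangement at a smaller scale. Hdac1 was at 18.8 to 22.6 CPM in WT and 13.5 to 18 CPM in FAAH S268D (-0.38 ± 0.07, adjusted p = 0.00151). Its copy Hdac1-ps on chromosome 17 was at 0.125 to 0.689 and 1.01 to 1.93 CPM, and their coding stretches differ at 9 of 1444 bases. The sum was 20.1 ± 1.22 and 16.8 ± 1.57 CPM, so the copy did not make up the whole difference. Gm4864, closest to Hdac1, was at 0 CPM in 6 WT libraries, at most at 0.0438 CPM in the others, and at 0.439 to 0.806 CPM in FAAH S268D. Gm6594 and Gm7125, closest to Hmgn2, were at 0 in every WT library and at 0.353 to 0.594 and 0.390 to 1.04 CPM in FAAH S268D. Hmgn2 itself, which encodes a nucleosome-binding protein, did not pass (28.0 and 25.9 CPM, adjusted p = 0.511). Copies this low in WT passed the filter mainly through FAAH S268D libraries, and the calls of all 10 copies are uncertain as measures of the loci they are named after.

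Markers of myeloid cells leaned lower in FAAH S268D without passing in the fit over 32 libraries. Of 23 monocyte and macrophage markers, 23 had negative log2 fold changes, with a median of -0.66 against 0.00 over all genes, and 0 passed. In the fit of the 16 libraries alone 14 of the 23 were lower, against 2.48% of all genes, and 12 to 20 were lower when single libraries were left out, the most without FAAH S268D replicate 3. Fcer1g, an Fc receptor chain gene, was at 14.9 to 27 CPM in WT and 7.38 to 13.9 CPM in FAAH S268D (-0.76 ± 0.19, adjusted p = 0.0553, and 0.00713 in the 16 alone). Tyrobp was at 18.6 to 31.2 and 9.31 to 18.4 CPM (-0.68 ± 0.20, adjusted p = 0.116). Plac8 was at 7.54 to 11.5 and 3.67 to 7.49 CPM (-0.66 ± 0.19, adjusted p = 0.103). None of these 3 genes overlapped between the groups, and the groups of 6 of the 23 markers did not, against 0.624% of all genes. Cd68, a lysosomal marker of macrophages, was at 26.6 to 41.7 and 12.5 to 27.3 CPM (-0.70 ± 0.21, adjusted p = 0.112). On NASH the median of the 23 markers was -0.89. The fit over 32 libraries called 18 of them lower there, against 6.3% of all genes.

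The summed level of the 23 markers was 648 to 891 CPM in WT and 362 to 679 CPM in FAAH S268D. The summed hepatocyte markers moved the other way, at 88700 to 109000 CPM in WT and 105000 to 122000 CPM in FAAH S268D. In whole tissue, fewer cells of a type and less RNA per cell cannot be told apart, and the part of cell makeup in these results was not tested. The mean score of the list, a mean over members of the log2 difference from the 16 libraries, differed by -0.56 among library numbers 1 to 16 and -0.72 among numbers 17 to 32. FAAH S268D replicate 3 scored 0.19, above the lowest WT library at -0.01.

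Chemokines, cytokines, their receptors and adhesion genes were the 1 list whose scores did not overlap, at 0.16 to 0.59 in WT and -0.75 to -0.11 in FAAH S268D. Of its 36 members, 30 were negative with a median of -0.59, and 0 passed. In the 16 libraries alone 17 were lower and 1 higher, against 2.48% and 1.64% of all genes, with 9 to 20 lower when single libraries were left out, the fewest without FAAH S268D replicate 2. Icam1, which encodes a leukocyte adhesion receptor, was at 21.3 to 28.9 CPM in WT and 11.5 to 20.9 CPM in FAAH S268D, with no overlap (-0.61 ± 0.15, adjusted p = 0.0588, and 0.00449 in the 16 alone). Il1b, the interleukin 1 beta gene, was at 2.12 to 3.09 and 0.687 to 2.15 CPM (-1.10 ± 0.30, adjusted p = 0.0826). Tlr2 was at 6.14 to 10.9 and 2.86 to 7.17 CPM (-0.85 ± 0.22, adjusted p = 0.0698). Ccl3 stood at 0.654 and 0.276 CPM (-1.34 ± 0.37, adjusted p = 0.0826). On NASH the median of the 36 members was -0.80. The fit over 32 libraries called 21 of them lower there, against 6.3% of all genes.

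Most lists of other immune cells also leaned lower, with fewer calls. Their counts in the 16 alone stand against 2.48% of all genes lower there, and single libraries moved them: 0 to 3 for Kupffer cells, 0 to 2 for T and NK cells, 0 to 6 for interferon genes and 0 to 8 for dendritic cells and MHC class II. The highest counts came without FAAH S268D replicate 3 for Kupffer and dendritic cells, without FAAH S268D replicate 6 for interferon genes and without WT replicate 1 for T and NK cells. Lipid-associated macrophage markers had 18 of 20 negative (median -0.48, 0 passing, 4 lower in the 16 alone). Among them Mmp12, a macrophage elastase gene, was at 10.3 to 41 CPM in WT and 2.15 to 14.7 CPM in FAAH S268D (-1.66 ± 0.62, adjusted p = 0.204). The summed level of that list was not lower, with medians of 32700 CPM in WT and 34400 in FAAH S268D. A sum weighs members by abundance, so a few abundant genes can set it whatever the others do. Median sums were lower in FAAH S268D for Kupffer cells (865 and 690 CPM), dendritic cells and MHC class II (599 and 462) and T and NK cells (12.6 and 9.88). Kupffer cell markers had 14 of 15 negative (median -0.34, 1 lower in the 16 alone), with Cd5l at 224 and 166 CPM (-0.46 ± 0.18, adjusted p = 0.218). Genes of dendritic cells and MHC class II had 16 of 20 negative (median -0.44, 1 lower in the 16 alone). T and NK cell markers had 16 of 16 negative (median -0.52, 1 lower in the 16 alone), all at low levels, such as Cd8a at 0.907 and 0.327 CPM. Interferon response and MHC class I genes had 31 of 31 negative, at a smaller median of -0.25, with 2 lower in the 16 alone. B and plasma cell markers did not lean, with 6 of 13 negative and a median of 0.04. Of 13 neutrophil markers 4 were tested and 3 were negative, and the defining marker Ly6g was among those not tested.

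**Figure D5:**
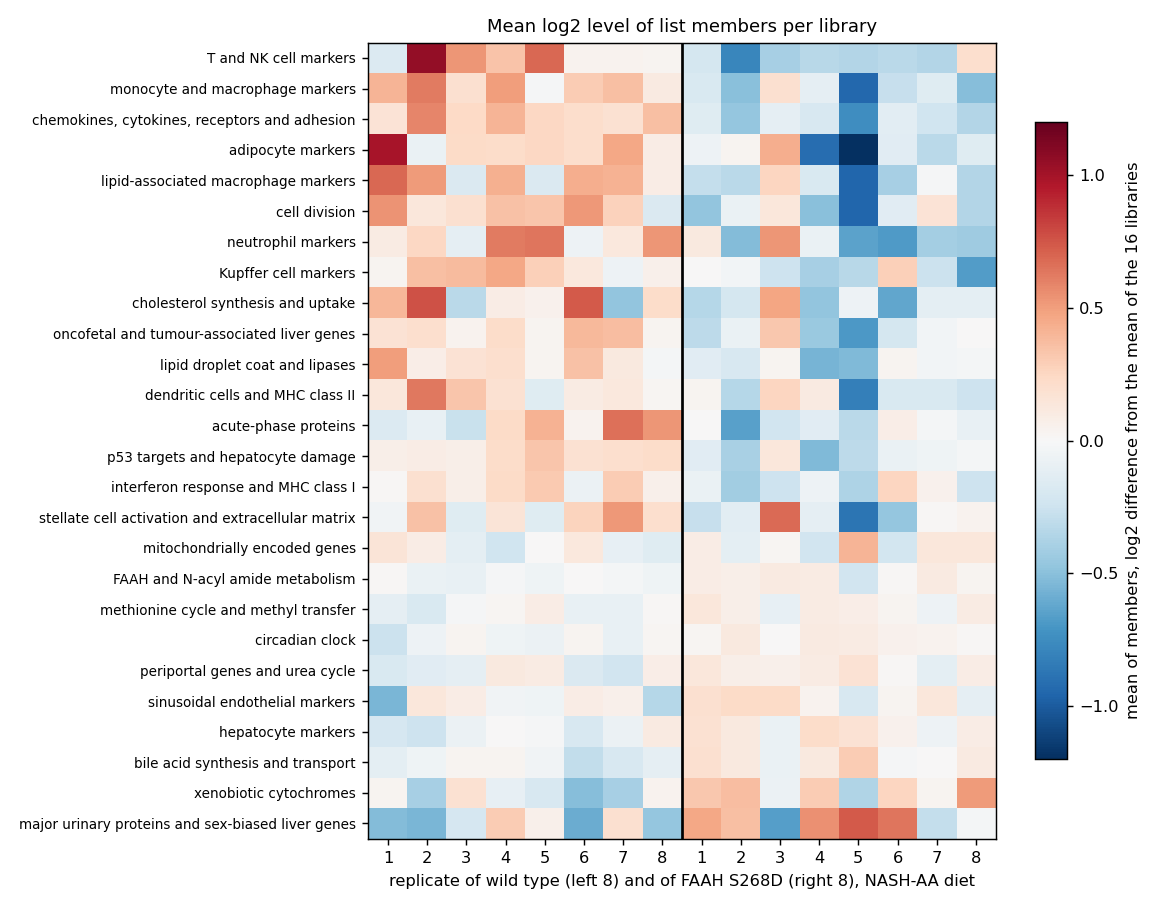
Mean log2 level of the members of 26 gene lists in each of the 16 libraries, as the difference from the mean of the 16 libraries. The lists are the 16 lowest and 10 highest by the difference of group means; colours end at 1.2 on either side, and the adipocyte score of FAAH S268D replicate 5 (-1.23) lies just past that end. Chemokine and adhesion genes lie at 0.16 to 0.59 in every WT library (left) and at -0.75 to -0.11 in every FAAH S268D library (right), while the other lists overlap.

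Genes of cell division, matrix and damage also leaned lower, and their medians on NASH were -0.66, -0.43 and -0.26. Of 29 cell division genes, 27 were negative (median -0.50), 0 passed and 5 were lower in the 16 alone, against 2.48% of all genes. Top2a, the topoisomerase of dividing cells, was at 2.91 to 4.78 CPM in WT and 0.895 to 4.03 CPM in FAAH S268D (-0.92 ± 0.29, adjusted p = 0.146). Of 39 matrix and stellate cell activation genes, 35 were negative (median -0.26), and 0 passed in either fit. FAAH S268D replicate 3 weighed on these counts. Without it 11 of 29 cell division genes were lower in the 16 alone, as were 11 of 20 lipid-associated macrophage markers and 8 of 20 genes of dendritic cells and MHC class II. For the matrix and stellate list it scored 0.68 against -0.88 to 0.04 in the others of its group, and 9 members were lower without it. The score of that list differed by -0.01 among library numbers 1 to 16 and -0.52 among numbers 17 to 32. The summed level of the list, which abundant members weigh most in, was not lower, at a median of 3460 CPM in both groups (2590 to 3880 in WT and 2880 to 4260 in FAAH S268D). Vim, the vimentin gene, was at 45.6 and 35.0 CPM (-0.40 ± 0.17, adjusted p = 0.241). Of 20 p53 targets and damage genes, 20 were negative (median -0.18), with Cdkn1a, the p21 gene, at 7.14 to 20.8 and 2.01 to 7.79 CPM (-1.47 ± 0.48, adjusted p = 0.153, and 0.00602 in the 16 alone). Acute-phase proteins had 20 of 27 negative and 4 lower in the 16 alone, and their score differed by -0.08 among library numbers 1 to 16 and -0.46 among numbers 17 to 32. They include the serum amyloid genes Saa1 at 298 and 133 CPM and Saa2 at 202 and 79.9 CPM (adjusted p = 0.227 and 0.169). Of 30 NRF2, glutathione and antioxidant genes, 22 were negative (median -0.18), and Hmox1, the heme oxygenase 1 gene, was at 33.9 to 59.9 and 18.8 to 36.6 CPM (-0.62 ± 0.16, adjusted p = 0.0601, and 0.0174 in the 16 alone).

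The 5 lists of lipid genes given next had 0 members past the threshold in the fit over 32 libraries. Cholesterol synthesis and uptake had 22 of 24 negative (median -0.17, and 0.27 on NASH), with 0 passing in either fit. Fatty acid synthesis had 16 of 20 negative (median -0.21, and 0.36 on NASH), also with 0 in either fit. Acacb, an acetyl-CoA carboxylase gene, ranged from 44.4 to 298 CPM in WT and 16.3 to 116 CPM in FAAH S268D (-1.11 ± 0.50, adjusted p = 0.283). Among genes that make arachidonate and other polyunsaturated fatty acids, 12 of 14 were negative and 0 passed, with the desaturase gene Fads2 at 846 and 499 CPM (-0.73 ± 0.30, adjusted p = 0.234). The 21 genes that oxygenate arachidonate had a median of 0.02 and 0 calls. Lipid droplet coat and lipase genes had 15 of 19 negative (median -0.23) and 0 passing. In the 16 alone 3 were lower, against 2.48% of all genes. That count was 0 to 5 when single libraries were left out, the most without FAAH S268D replicate 3 or WT replicate 5. Among them Cidec, a lipid droplet coat gene, was at 38.8 to 125 CPM in WT and 5.64 to 55.9 CPM in FAAH S268D (-1.70 ± 0.60, adjusted p = 0.181, and 0.0298 in the 16 alone). It is also an adipocyte marker. Of the 12 adipocyte markers 7 were tested, with summed levels of 722 to 1380 and 710 to 1290 CPM, and the defining markers Adipoq, Plin1 and Lep were not tested because of low counts.

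Lists of hepatocyte function leaned higher. Xenobiotic cytochromes had 28 of 34 positive (median 0.31), 0 passing and 4 higher in the 16 alone against 1.64% of all genes (1 to 9 when single libraries were left out, 9 without FAAH S268D replicate 3), with Cyp2c29 at 626 to 1329 CPM in WT and 1050 to 2065 CPM in FAAH S268D (0.83 ± 0.30, adjusted p = 0.183, and 0.0141 in the 16 alone). Bile acid synthesis and transport had 18 of 25 positive (median 0.12), with Slco1a4 the 1 that passed. In the 16 alone 4 were higher (1 without FAAH S268D replicate 2, and 6 without FAAH S268D replicate 3 or WT replicate 3), among them Slc27a5, which activates bile acids for conjugation to taurine or glycine (692 and 898 CPM, 0.37 ± 0.11, adjusted p = 0.0994). Periportal genes had 15 of 22 positive, with 1 lower, Apoa4, past the threshold. In the 16 alone 6 were higher and 2 lower, against 1.64% and 2.48% of all genes. Hal, the histidase gene, was at 119 to 279 and 227 to 369 CPM (0.73 ± 0.22, adjusted p = 0.135). Major urinary protein and sex-biased genes had the largest positive median, 0.51, with 17 of 21 positive and 0 passing in either fit, and FAAH S268D replicate 3 was the lowest library of the list at -0.66. Of the 894 tested members of all lists, 4 passed in the fit over 32 libraries, against 0.658% of all genes. They were Csad, Apoa4, Slco1a4 and Ndufs5.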

How the data were processed

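The libraries are of polyA RNA from whole liver (Tecan Universal Plus mRNA-seq kit), per the labels' protocols. The submitters' processing notes name Trim Galore 0.6.7, UMI-tools 1.1.2, STAR 2.7.10 and the build GRCm38. How reads were assigned to genes, and whether by strand, is not given in the sources used here, so near-identical copies, overlapping genes and antisense genes may share reads. The authors deposited 1 table of estimated gene counts, unscaled, in which some cells had been altered by a spreadsheet, and its unit was therefore recorded as other than counts (87.9% of 1775584 cells were whole numbers). Restoration by fixed rules undid digit grouping, clock times and fractions of a day. For 4823 cells (0.27%) with 2 possible originals, the value nearer to the gene's depth-scaled median was taken, and all values were rounded to whole numbers. Count-model tests were not run because of that unit.

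The test was limma-voom (limma 3.58.1, R 4.3.3; prior count 0.5) with trimmed-mean factors from own code, 1 mean per group over all 32 libraries, and Benjamini-Hochberg adjustment over 14902 genes. Kept genes reached, in 8 libraries, the CPM that 10 counts give at the median depth, with 15 counts in total. In the shallowest of the 32 libraries, which is of the NASH diet, there were 3851397 counts. The fit over 32 libraries was also run on simulated counts for these 14902 genes with known changes in FAAH S268D NASH-AA. It found 85 of 100 changes of 2-fold and 92 of 100 of 4-fold, with 8 false calls among 185. The fit of the 16 libraries alone made 180 calls there, close to 185. On the measured libraries the same fits made 98 and 615 calls, a gap that the simulated counts did not show. Whether the rates above hold for the measured libraries was not tested. Gene positions come from GENCODE M21, in which 55227 of 55487 identifiers were found. Copies were matched by shared words of transcripts.

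Genes named are Faah, then the 12 higher and 12 lower called genes with the largest fold changes at a mean of at least 1 CPM and with at least 6 of 8 libraries of each genotype beyond the median of the other genotype. Clone names and pseudogenes were left out of that rule. Called genes outside 40 Mb of Faah, up to 4 members of smallest p per list and copies were added, and others are named because their values were seen. The 46 gene lists (956 symbols, 2 not in the table) and the genes were chosen with earlier results of these data known. Replicate numbers were not treated as pairs: correlations of same-numbered libraries ran from -0.21 to 0.26, which neither shows nor excludes pairing. Alternatives covered normalization, filters, blocks, weights, limma-trend, a fold threshold, each range of library numbers, single libraries and the reading of altered cells. No deposited column was left unused (0).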

Additional observations from a re-analysis of the deposited data

Results flagged for a closer look

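Within each group of 8, the lowest or highest library was set against the others by its gap divided by the group's range, in 204 sets of values. Of these, 11 (5.39%) passed, about the 1 in 20 that chance gives. The total count of WT NASH-AA replicate 7, 34370032, lay apart from the others of its group. Of 90 list scores, 5 passed. FAAH S268D replicate 5 scored -0.23 for FAAH and N-acyl amide metabolism (others 0.01 to 0.11), and replicate 2 scored -0.70 for iron handling (others -0.22 to 0.13). WT replicate 1 scored -0.26 for circadian clock genes (others -0.09 to 0.03) and 0.38 for NRF2, glutathione and antioxidant genes (others 0.01 to 0.18). WT replicate 4 scored 0.74 for erythroid genes (others -0.31 to 0.16).

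Among 110 gene values, 5 passed. FAAH S268D replicate 6 was high for Cep85 (31.1 CPM, others 14.5 to 17.9), Ptpru (3.22 CPM, others 0.294 to 0.952) and Chd9 (124 CPM, others 59.4 to 76.0), the last on chromosome 8. FAAH S268D replicate 7 was high for Tlr12 (5.94 CPM, others 3.12 to 4.23), and WT replicate 2 for Hdac1 (22.6 CPM, others 18.8 to 20.5).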

How the results depend on the processing

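The count of 98 genes was 86 with total counts, 98 with median-of-ratios size factors, 82 with no filter, 80 with a stricter one and 81 with limma-trend. It was 615 in the 16 libraries alone, 756 with sample quality weights, 24 with a fold threshold of 1.2, 17 in library numbers 1 to 16 alone (3 WT and 4 FAAH S268D) and 41 in numbers 17 to 32 alone, where 11 and 22 lay within 40 Mb of Faah. Within 40 Mb the count of 46 was 80 in the 16 alone, 96 with quality weights and 15 with the fold threshold. Testing only genes outside the 40 Mb left 24 of 14296, where 52 had passed. With the replicate number as a block, 63 genes passed, and 395 in the 16 alone. Of the 61 named called genes, 28 were lost with that block in the fit over 32 libraries. Correlations of same-numbered libraries cannot tell whether the numbers pair the samples, and replicates 1 and 5 matched best with their own number. Leaving out single libraries gave 66 to 188 genes, the last without WT NASH replicate 5, and 36 to 62 within 40 Mb; in the 16 alone 257 to 1323, with 11 of 16 libraries moving it by over 1.5 times, and 990 with quality weights. Leaving out single NASH libraries, and the changes made to the fit of the 16 alone, were chosen after seeing the data. The difference between diets stayed at 0 in every setting run. No named gene changed sign, and 8 of 61 named called genes passed under every setting and without each library. The size of some differences varied more between library numbers 1 to 16 and 17 to 32 than that of Csad, as for Chd9 (-0.44 and -1.04) and Arsg (-1.15 and -0.47). The 18 list medians examined moved by less than the SD of library scores. Depth limits genes near 1 CPM.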

Other observations

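Some lists outside the comparisons above are given as values. Nuclear genes of oxidative phosphorylation had 30 of 36 members positive at a median of 0.05, and Ndufs5 was the 1 that passed. Circadian clock genes had 15 of 21 positive (median 0.21), 0 passing and 2 higher in the 16 libraries alone, against 1.64% of all genes. Sinusoidal endothelial markers had 21 of 24 positive (median 0.12), and the difference of their score was 0.28 among library numbers 1 to 16 and 0.02 among numbers 17 to 32. Cholangiocyte markers had 9 of 18 positive (median 0.01). Complement and coagulation factors had 23 of 37 positive (median 0.09) and 0 passing. In the 16 alone 3 were higher and 4 lower, against 1.64% and 2.48% of all genes. Genes of the unfolded protein and integrated stress response had 19 of 31 negative (median -0.04), and PPARalpha targets and fatty acid oxidation genes 18 of 29 positive (median 0.04). Pglyrp2, a peptidoglycan-degrading enzyme gene of hepatocytes named because its groups were seen not to overlap, had means of 118 CPM in WT and 87.4 CPM in FAAH S268D (-0.43, adjusted p = 0.00138).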
